A study of Saccharomyces cerevisiae with 10 samples.

Results

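The genes described here encode the RNase H enzymes of budding yeast and a set of helicases and topoisomerases that act on R-loops or on structures like them. They were taken by name from the deposited table: RNH1, RNH201, RNH202, RNH203, SEN1, PIF1, RRM3, SGS1, TOP1 and DBP2. All 10 were present, out of 5989 coding sequences in the table, and the rule takes them by name alone, although the list of names was drawn up with earlier results of these data known. Wild-type BY4741, a haploid laboratory strain of Saccharomyces cerevisiae, was cultured in synthetic complete medium at 30 °C until its OD600 was between 0.4 and 0.5. The medium was then brought to 1.5 M KCl, and cells were taken every 30 min, which gave groups of 0.5, 1, 1.5 and 2 h in KCl and an unstressed 0 h control. Each of the 5 groups had 2 libraries of poly(A)-purified RNA, 1 from each of 2 replicate time series, a and b. Nothing but salt and time differed between groups by the labels, the study used 1 strain, and no RNase H or Pol32 mutant was among the samples analysed here.

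An R-loop is an RNA paired with 1 strand of a DNA duplex, with the other DNA strand displaced, and it forms mostly behind RNA polymerase. RNase H1, a single protein, cuts the RNA of such hybrids, and RNase H2, an enzyme of 3 subunits, also removes single ribonucleotides left in DNA by the replicative polymerases. Helicases such as Sen1 unwind the hybrid instead of cutting it, and topoisomerases relax the supercoils that favour its formation. The title of the series names RNase H1 and Pol32, a subunit of DNA polymerase delta, in connection with R-loops and stress granules.

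Per library, between 3372373 and 4913739 reads fell on coding sequences in series a. Series b had 4676814 at 0 h, and between 7851019 and 8325291 under KCl. The 10 genes had 34 to 5340 reads per library, and all 10 passed the filter on low counts with 5943 genes in all. Levels are CPM (counts scaled by depth and by the TMM factors of edgeR), and 3 reads were worth 0.321 to 0.833 CPM by library. They give a share of the poly(A) RNA in a library: RNA per cell was not measured, so less of 1 transcript per cell and more of the others cannot be told apart. Checked against the strain label, LEU2 and MET17, which BY4741 lacks, had 0 reads in all 10 libraries and HIS3 at most 1.60 CPM. URA3, also deleted in BY4741, had 162 reads (37.6 CPM) in the 0.5 h library of series a and 0 to 1.16 CPM in the other 9 libraries. That library therefore goes against its strain label, and calls of the 10 genes at 0.5 h are given with and without it. BY4741 is of mating type a. STE2, for the receptor of a cells, lay between 286 and 1014 CPM, and STE3, for the receptor of alpha cells, between 9.99 and 48.4 CPM. From 1 h on the a-specific genes STE2, MFA1 and MFA2 were called lower (-1.76, -2.38 and -2.27 at 1.5 h), and the alpha-specific STE3 and MF(ALPHA)1 higher (2.00 and 3.77 at 1.5 h), MF(ALPHA)1 also at 0.5 h (2.12), while MF(ALPHA)2 was lower at 0.5 h (-0.73) and not called at 1.5 h (-0.10, adjusted p = 0.67). MF(ALPHA)1 had only 4 reads in each 0 h library and 11 in the 0.5 h library of series a, so its fold changes rest on a base near 3 reads. BAR1, also a-specific, was called higher at 0.5 h (0.61) and 1 h (0.15) and lower at 1.5 h (-0.88) and 2 h (-1.42). These values move with time in KCl as those of the 10 genes do, and their part in the results was not tested. GPD1, STL1, CTT1 and HSP12, which respond to osmotic stress, all rose at 1 h (log2 fold changes of 3.61 to 6.02), and at 0.5 h only HSP12 of the 4 did (1.27).

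Windows upstream of the genes were read from RefSeq's R64 genome, the build the submitters' processing notes name, from 350 to 51 bases before the start codon, for all 10. They are shown for 4 genes whose transcripts took different courses. These are DBP2, with the strongest fall, SGS1, with a late rise, RNH1, called lower from 1 h on, and RNH202, with an early rise. The windows are chrXIV:413289-413588 on the plus strand for DBP2, chrXIII:645309-645608 on the minus strand for SGS1, chrXIII:739916-740215 on the plus strand for RNH1 and chrIV:1019018-1019317 on the plus strand for RNH202, each written 5′ to 3′ on the strand of the gene. Capitals mark matches, on either strand, to 5 short motifs: PAC (GATGAG) and RRPE (AAAAATTT), known from ribosome assembly genes, STRE (AGGGG), known from stress genes, and MCB (ACGCGT) and SCB (CACGAAA), known from genes of the G1 to S transition.
DBP2: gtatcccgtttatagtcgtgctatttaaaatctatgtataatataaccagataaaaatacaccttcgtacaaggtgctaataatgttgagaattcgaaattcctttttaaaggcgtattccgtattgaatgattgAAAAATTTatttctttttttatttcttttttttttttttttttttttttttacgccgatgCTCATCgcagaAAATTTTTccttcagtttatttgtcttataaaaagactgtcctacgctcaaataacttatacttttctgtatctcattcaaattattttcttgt
SGS1: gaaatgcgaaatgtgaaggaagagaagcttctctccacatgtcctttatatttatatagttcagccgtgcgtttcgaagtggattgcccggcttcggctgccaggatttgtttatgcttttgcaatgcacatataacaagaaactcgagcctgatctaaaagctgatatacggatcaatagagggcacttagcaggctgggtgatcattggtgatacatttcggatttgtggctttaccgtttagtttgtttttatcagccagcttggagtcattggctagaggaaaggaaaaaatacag
RNH1: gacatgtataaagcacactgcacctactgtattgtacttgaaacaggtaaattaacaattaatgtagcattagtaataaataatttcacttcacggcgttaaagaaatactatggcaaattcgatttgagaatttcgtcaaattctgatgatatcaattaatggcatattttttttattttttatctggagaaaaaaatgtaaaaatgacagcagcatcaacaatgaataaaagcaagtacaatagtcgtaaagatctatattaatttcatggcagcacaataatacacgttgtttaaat
RNH202: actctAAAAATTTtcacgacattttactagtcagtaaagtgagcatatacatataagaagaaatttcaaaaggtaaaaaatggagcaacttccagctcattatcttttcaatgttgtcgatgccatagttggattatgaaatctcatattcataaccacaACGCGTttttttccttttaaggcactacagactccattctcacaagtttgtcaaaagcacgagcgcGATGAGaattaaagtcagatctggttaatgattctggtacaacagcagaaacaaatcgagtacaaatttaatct

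The DBP2 window held RRPE at 215 to 208 and, on the opposite strand, at 144 to 137 bases before the start codon, with PAC on the opposite strand at 155 to 150. The RNH202 window held RRPE at 345 to 338, MCB at 190 to 185 and PAC at 124 to 119. None of the 5 motifs was matched in the SGS1 and RNH1 windows, nor in those of RNH201 and TOP1. The RNH201 window reaches into the coding sequence of MSK1, 200 bases away, and that of PIF1 into OGG1, 338 bases away. Both PAC and RRPE were matched in 3 of the 10 windows (DBP2, RNH202 and PIF1) and in 5.82% of 5976 windows of the same length before all coding sequences. PAC was in 4 of the 10 and 19.8% of all windows, RRPE in 4 and 15.7%, MCB in 2 (RNH202 and RNH203) and 3.75%, STRE in 1 (RNH203) and 22.9%, and SCB in 0 and 4.77%. No matches to different motifs overlapped in these 10 windows; the 2 RRPE matches of PIF1 overlapped each other on opposite strands. A match describes letters in a window and no binding was measured.

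All 10 genes changed over the course as a whole (edgeR quasi-likelihood test of the 4 stress times together, adjusted p from 5.2e-20 for DBP2 to 1.9e-05 for TOP1). So did 91.7% of all genes tested, so that the count of 10 is near the background. The directions and times differed from gene to gene. RNH201 and RNH202 were high early, RRM3 was high at 1 h, SGS1 was high late, RNH1 and SEN1 were low throughout the later times, and DBP2 was high at 0.5 h and several-fold lower from 1.5 h.

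By time, 4 of the 10 genes were higher and 1 was lower at 0.5 h (RNH201, RNH202, TOP1 and DBP2 against SEN1), where 26% of all genes tested were called higher and 27.6% lower. At 1 h 2 were higher (RNH201 and RRM3) and 4 lower (RNH1, SEN1, PIF1 and DBP2), beside 28.9% and 28.1% of all genes. At 1.5 h 1 was higher (SGS1) and 5 lower (RNH1, RNH203, SEN1, PIF1 and DBP2), beside 37.5% and 39.1%. At 2 h 2 were higher (SGS1 and TOP1) and the same 5 lower, beside 37.8% and 37%. The shares called in either direction, 50%, 60%, 60% and 70% of the 10, stand beside the 53.7%, 56.9%, 76.5% and 74.9% of all genes, so these counts are no result about the 10 genes. The median log2 fold change of the 10 was 0.18, 0.04, -0.28 and -0.35 at the 4 times, beside 0.0014, 0.0043, -0.0078 and 0.011 over all genes tested. All 4 comparisons share the 0 h libraries.

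The direction of calls across all genes depended on the scaling. With library size alone the median of all genes moved by 0.32 at 1.5 h and 0.28 at 2 h on the log2 scale. The share of calls that were higher was then 68.4% against 49.0% with TMM at 1.5 h, 68.2% against 50.5% at 2 h, and 36.6% against 48.5% at 0.5 h. A scaling shifts all genes of a library alike, so values relative to the median of all genes stay the same by construction. With library size alone the count at 1.5 h was 4 higher (RNH201, RRM3, SGS1 and TOP1) and 3 lower (SEN1, PIF1 and DBP2). Of the 5943 genes tested, 4795 were called in that setting, with the 68.4% higher given above.

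**Figure D1:**
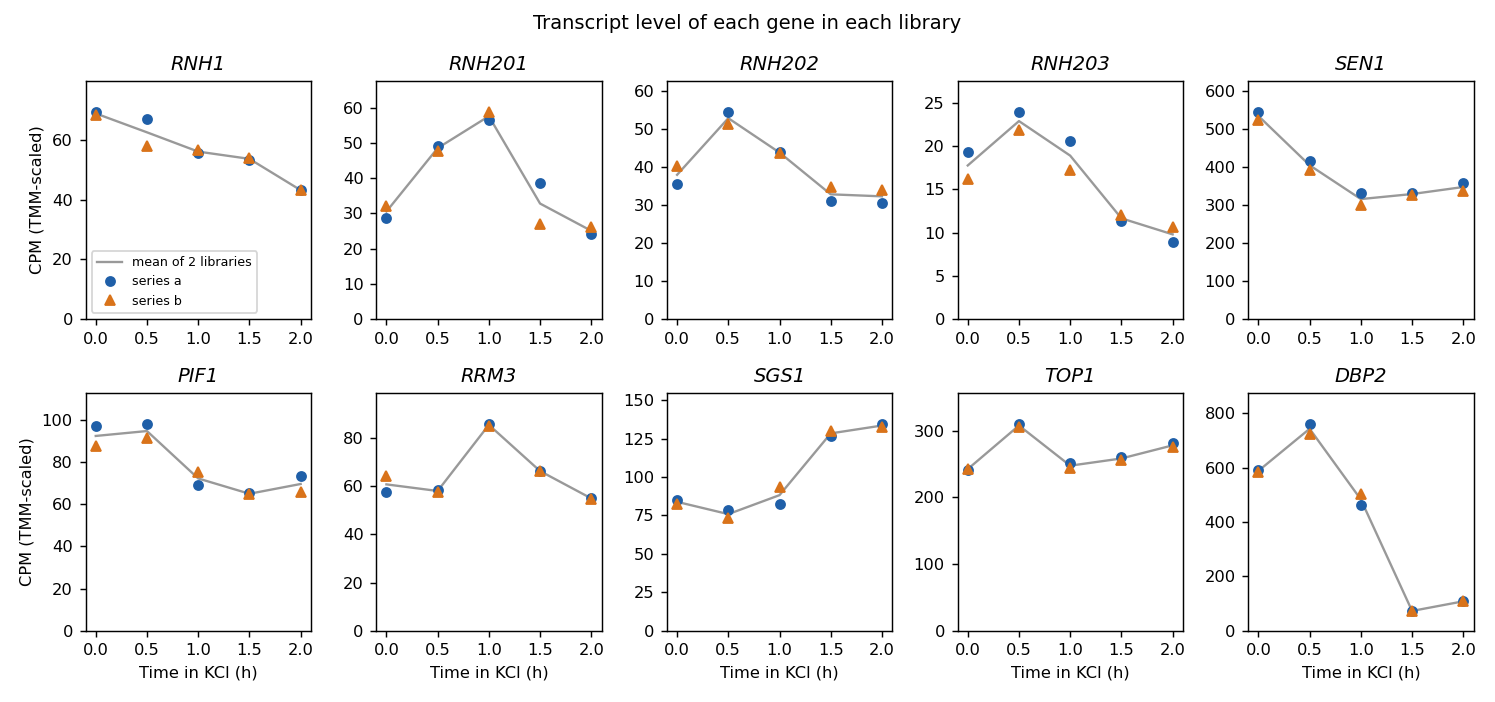
Transcript level of each of the 10 genes (y axis, TMM-scaled CPM, each panel on its own linear axis from 0) against time in KCl (x axis, hours). Circles are series a, triangles are series b and the line joins the means of 2 libraries. DBP2 stands at 73.4 and 72.5 CPM at 1.5 h, against 591 and 585 CPM at 0 h, while SGS1 stands at 127 and 130 CPM at 1.5 h, against 85.3 and 82.5 CPM at 0 h.

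RNase H1 is encoded by RNH1 (YMR234W, chrXIII:740266-741312, plus strand, 1 exon). It stood at 69.2 and 68.3 CPM at 0 h, 66.9 and 58.1 after 0.5 h, 55.5 and 56.5 after 1 h, 53.4 and 53.8 after 1.5 h, and 43.1 and 43.1 after 2 h, in series a and b in turn. From 1 h on, both libraries of each time lay below both 0 h libraries, and the 2 h libraries were the lowest of all. The transcript fell at 1 h (log2 fold change -0.29, SE 0.09, adjusted p = 0.0068 by edgeR's quasi-likelihood test), at 1.5 h (-0.36, SE 0.08, adjusted p = 0.0006) and at 2 h (-0.67, SE 0.09, adjusted p = 8.7e-07), when it was 1.59-fold lower. At 0.5 h the value was -0.16 (adjusted p = 0.12), and without the 0.5 h library of series a it was -0.24 (adjusted p = 0.035), so the call at this time depends on that library. Scaled by library size alone, the 1.5 h value was -0.04 (adjusted p = 0.66). The step to 2 h from 1.5 h was called lower as well (-0.31, SE 0.08, adjusted p = 0.0095), but not without the 1.5 h library of series b (-0.31, adjusted p = 0.07) or the 2 h library of series b (-0.31, adjusted p = 0.10).

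Among 5612 other genes with a mean of at least 10 CPM, those with a profile most like that of RNH1 over the 10 libraries were HHT1, for histone H3 (Pearson's r = 0.98 of log2 CPM), MAP2, for a methionine aminopeptidase (0.97), and HTA1, for histone H2A (0.96). The 10 libraries share their times in pairs, so these values describe a common time course, and no p is given. HHT1 and HTA1 each have a near-identical copy with which reads may be shared.

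RNase H2 consists of the catalytic subunit Rnh201 and the accessory subunits Rnh202 and Rnh203. RNH201 (YNL072W, chrXIV:490317-491240, plus strand) stood at 28.8 and 32.2 CPM at 0 h, 49.2 and 47.7 after 0.5 h, 56.4 and 58.7 after 1 h, 38.7 and 26.9 after 1.5 h, and 24.1 and 26.0 after 2 h. The libraries of 0.5 and 1 h lay above those of the other times, and the 2 libraries of 1.5 h differed by more than those of any other time. RNH201 rose at 0.5 h (log2 fold change 0.66, SE 0.14, adjusted p = 0.00045 by edgeR's test) and at 1 h (0.92, SE 0.13, adjusted p = 9.5e-06), when it was 1.89-fold higher. Without the 0.5 h library of series a the 0.5 h value was 0.65 (adjusted p = 0.0034). At 1.5 h it was 0.04 (adjusted p = 0.80) against 0 h and fell by 0.88 against 1 h (SE 0.12, adjusted p = 2.7e-06). Without the 1.5 h library of series b the value against 0 h was 0.34 (adjusted p = 0.03). At 2 h the value was -0.27 (adjusted p = 0.12), and it became called, at a like size, without either 1.5 h library (-0.27, adjusted p = 0.049 without series a and 0.047 without series b).

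RNH202 (YDR279W, chrIV:1019368-1020420, plus strand), the subunit through which the enzyme binds the sliding clamp PCNA in human cells, stood at 35.5 and 40.2 CPM at 0 h, 54.3 and 51.1 after 0.5 h, 43.9 and 43.5 after 1 h, 31.0 and 34.6 after 1.5 h, and 30.6 and 33.9 after 2 h. Its highest libraries were those of 0.5 h. It rose at 0.5 h (0.47, SE 0.10, adjusted p = 0.00075), also without the 0.5 h library of series a (0.43, adjusted p = 0.0066). The values at 1, 1.5 and 2 h were 0.20, -0.19 and -0.21, with adjusted p of 0.11, 0.11 and 0.089. Against 0.5 h the transcript was lower at 1.5 h (-0.66, SE 0.10, adjusted p = 2.7e-06).

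RNH203 (YLR154C, chrXII:447982-448314, minus strand) is the shortest of the 10 coding sequences, with 333 bases, and had the fewest reads. It stood at 19.3 and 16.2 CPM at 0 h, 23.9 and 21.8 after 0.5 h, 20.6 and 17.2 after 1 h, 11.3 and 12.0 after 1.5 h, and 8.89 and 10.7 after 2 h. The 4 libraries of 1.5 and 2 h lay below the other 6. It fell at 1.5 h (-0.60, SE 0.17, adjusted p = 0.0039) and at 2 h (-0.81, SE 0.18, adjusted p = 0.00044), when it was 1.76-fold lower. The 1.5 h call was lost without the 0 h library of series a (-0.47, adjusted p = 0.06) and when scaled by library size alone (-0.28, adjusted p = 0.14). At 0.5 h the value was 0.36 (adjusted p = 0.068), which became called with DESeq2-style size factors (0.40, adjusted p = 0.04). Without the 0.5 h library of series a the 0.5 h value was 0.30.

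RNH203 lies beside the ribosomal DNA repeats, 6381 bases from TAR1, the next coding sequence on that side. TAR1 and its neighbour YLR154C-G, which share sequence with the 25S ribosomal RNA gene, rose at every stress time (log2 fold changes of 2.81 to 3.98 and of 3.40 to 4.71). On the other side, YLR152C fell at 0.5 h (-1.52) and 1 h (-0.68), and ACS2, for an acetyl-CoA synthetase, fell at 1 h (-0.33), 1.5 h (-1.22) and 2 h (-0.91). No coding sequence of the 10 genes overlapped another annotated one.

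Per kilobase of coding length, RNH1 stood above RNH201 in both 0 h libraries (ratios of 2.12 in series a and 1.87 in series b). The ratio stood at 1.20 and 1.07 in the 0.5 h libraries, at 0.870 and 0.849 in those of 1 h, at 1.22 and 1.77 in those of 1.5 h, and at 1.58 and 1.46 in those of 2 h. The ratio was thus below 1 at 1 h, and there in both libraries. RNH202 over RNH201 stood at 1.08 and 1.10 before KCl, 0.683 and 0.651 after 1 h, and 1.12 and 1.14 after 2 h. RNH203 over RNH201 stood at 1.86 and 1.40 before KCl, 1.01 and 0.814 after 1 h, and 1.03 and 1.14 after 2 h. In both series all 3 ratios were lower at 1 h than before KCl, a description of ratios that were not tested. All 3 are taken over RNH201, which was 1.89-fold higher at 1 h, so they are not separate observations. After 1.5 h the series differed: RNH202 over RNH201 stood at 0.702 and 1.13, and RNH203 over RNH201 at 0.811 and 1.24. The genes most like RNH201 over the 10 libraries were NBA1, for a bud neck protein, RMD9, for a mitochondrial RNA-binding protein, and DAM1, for a kinetochore protein, each with r = 0.95.

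**Figure D2:**
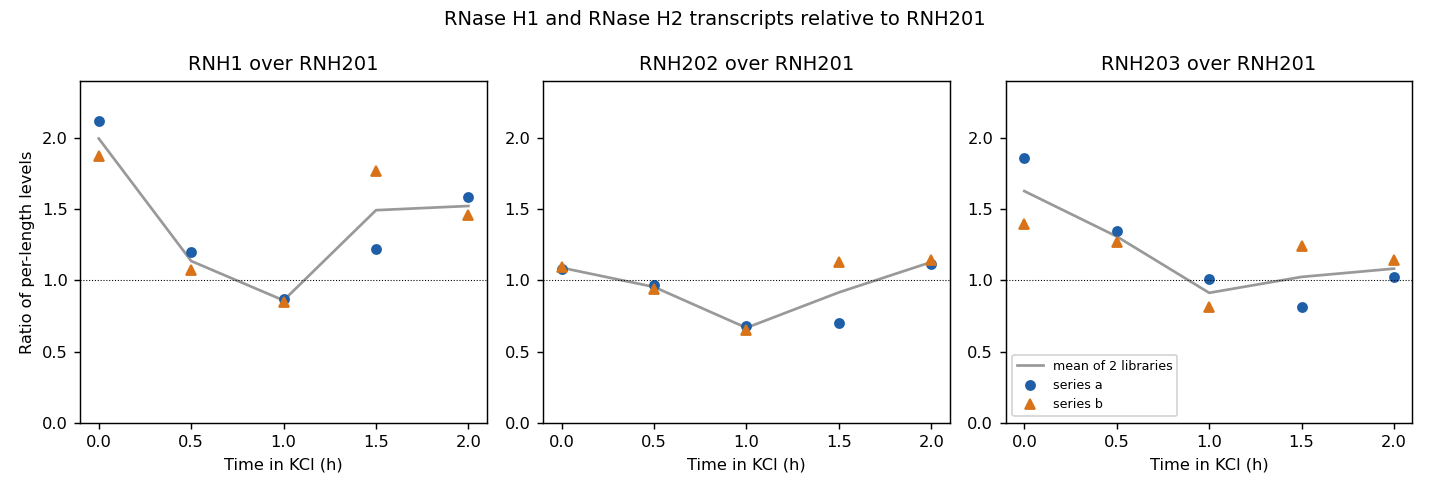
Ratios of per-length transcript levels (y axis, ratio of CPM per kilobase, linear from 0) against time in KCl (x axis, hours) for RNH1, RNH202 and RNH203 over RNH201. Circles are series a, triangles series b, and the line joins the means of 2 libraries; RNH1 over RNH201 lies at 0.870 and 0.849 after 1 h, against 2.12 and 1.87 at 0 h.

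Sen1 is a helicase that unwinds RNA from DNA and ends transcription of short non-coding RNAs together with Nrd1 and Nab3. SEN1 (YLR430W, chrXII:993434-1000129, plus strand), the longest of the 10 coding sequences with 6696 bases, stood at 545 and 525 CPM at 0 h, 417 and 393 after 0.5 h, 332 and 300 after 1 h, 333 and 326 after 1.5 h, and 359 and 337 after 2 h. All 8 stress libraries lay below both 0 h libraries. SEN1 fell at 0.5 h (-0.40, SE 0.06, adjusted p = 1.3e-05), 1 h (-0.77, SE 0.06, adjusted p = 2.4e-09), 1.5 h (-0.70, SE 0.06) and 2 h (-0.62, SE 0.06, adjusted p = 1.3e-08). It was the only one of the 10 called at all 4 times in the same direction, and without the 0.5 h library of series a the 0.5 h value was -0.44 (adjusted p = 0.00012). The closest profiles among other genes were those of SPT14, for an enzyme of GPI anchor synthesis (r = 0.99), HOG1, for the MAP kinase of the osmostress pathway (0.99), and MCH5, for a riboflavin transporter (0.98).

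Of 8 genes listed with SEN1 for termination, 2 were higher and 3 lower at 1.5 h (median -0.0012), beside 37.5% and 39.1% of all genes, and 5 and 3 with library size alone. NRD1, for an RNA-binding partner of Sen1, rose (0.40, SE 0.06), and HRP1, for a cleavage factor subunit, fell most (-1.11, SE 0.05). Of 9 genes of the THO and TREX complexes, which package nascent mRNA, 1 was higher and 5 lower at 1.5 h (median -0.22), beside the same shares of all genes, with library size alone 3 and 2. TEX1 rose (0.68, SE 0.10), and SUB2, for the RNA helicase of TREX, fell (-0.60, SE 0.06). The shares of 37.5% and 39.1% are those with TMM. Library size alone called 4795 of the 5943 genes tested at 1.5 h, 68.4% of these calls higher.

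Dbp2 is a DEAD-box RNA helicase that acts on nascent transcripts and in ribosome assembly. DBP2 (YNL112W, chrXIV:413639-416281, plus strand) is the only 1 of the 10 with an intron, of 1002 bases at chrXIV:414912-415913, and the deposited length of 1641 bases counts exons. It stood at 591 and 585 CPM at 0 h, 761 and 724 after 0.5 h, 464 and 502 after 1 h, 73.4 and 72.5 after 1.5 h, and 109 and 108 after 2 h. The libraries of each time lay apart from those of every other time. DBP2 rose at 0.5 h (0.34, SE 0.05, adjusted p = 3.4e-05; 0.30, adjusted p = 0.0012 without the 0.5 h library of series a) and fell at 1 h (-0.28, SE 0.05, adjusted p = 0.00024). At 1.5 h it averaged 73.0 ± 0.61 CPM, against 588 ± 4.80 CPM at 0 h (SD, n = 2 each), 8.06-fold lower (-3.01, SE 0.06, adjusted p = 6.8e-19). At 2 h it was 5.43-fold lower than at 0 h (-2.44, SE 0.06, adjusted p = 1.4e-17) and higher than at 1.5 h (0.57, SE 0.07, adjusted p = 8.2e-06). The fall between 1 and 1.5 h, 6.64-fold, was the largest step of any of the 10 genes between successive times (-2.73, SE 0.06).

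Of 18 other RNA helicases of ribosome assembly, 17 were higher and 0 lower at 0.5 h (median 0.39), and 14 and 0 without the 0.5 h library of series a. At 1 h 0 were higher and 10 lower (median -0.22). At 1.5 h 0 were higher and 17 lower (median -1.51), and at 2 h again 0 and 17 (median -1.19). At 1.5 h the largest fall was that of MTR4, for a helicase of the nuclear exosome (-2.26, SE 0.06), and the 1 gene not called was FAL1 (-0.28, adjusted p = 0.056). The value of DBP2, -3.01, lay below that of each of these 18, a difference that was not tested. These shares stand beside 37.5% higher and 39.1% lower of all genes at 1.5 h and 26% higher at 0.5 h. In the 13 other RNA helicases listed, 7 were higher and 4 lower at 1.5 h (median 0.16): DBP1, for a DEAD-box protein of translation initiation, rose (1.88, SE 0.11), and TIF2, for translation initiation factor eIF4A, fell (-1.63, SE 0.06). TIF2 and TIF1 are near-identical copies between which reads may be shared.

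The profiles most like that of DBP2 over the 10 libraries were those of RPA135, for a large subunit of RNA polymerase I (r = 0.9996), RPS12, for a ribosomal protein (0.9991), and RRP5, for a factor of ribosomal RNA processing (0.999). RRPE and PAC, marked in the DBP2 window above, were both present there. They were both present as well before RNH202 and PIF1. Against 0 h, RNH202 was not called at 1.5 h (-0.19) or 2 h (-0.21), and PIF1 was called lower at both times (-0.51 and -0.43). With library size alone these values were 0.13 and 0.07 for RNH202 and -0.19 and -0.15 for PIF1.

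**Figure D3:**
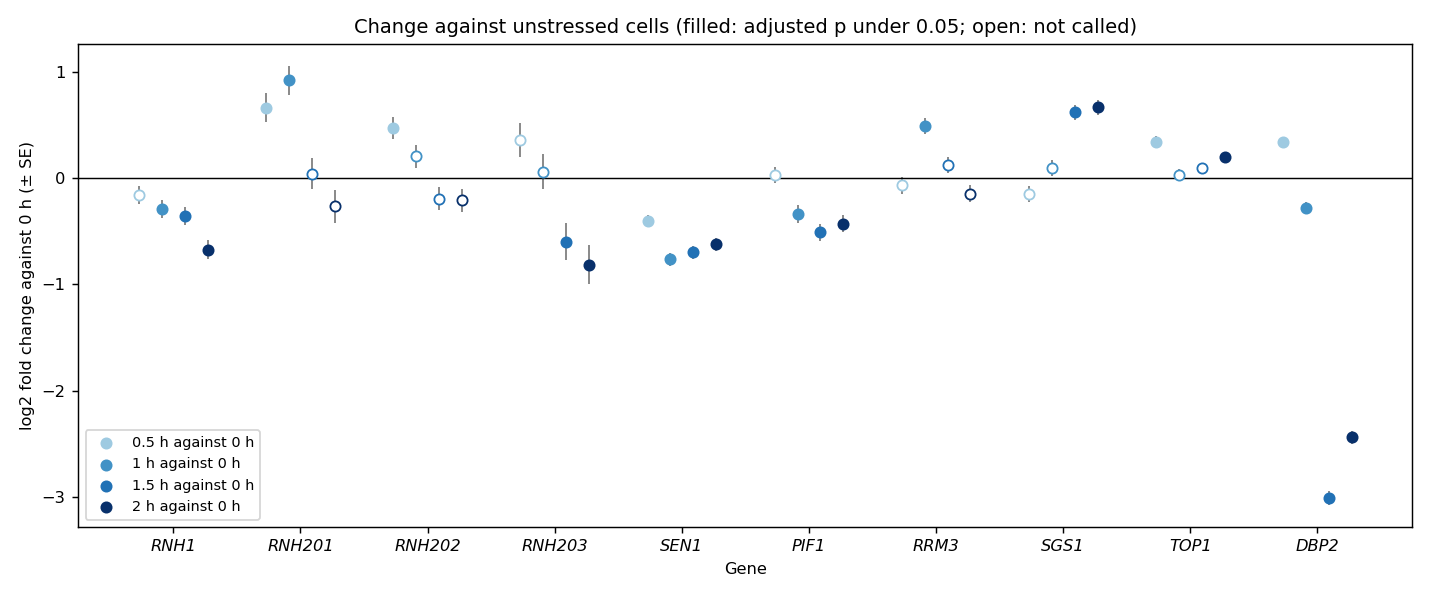
Log2 fold change of each gene against 0 h (y axis) at 0.5, 1, 1.5 and 2 h in KCl (light to dark points, ± SE); filled points passed an adjusted p of 0.05 by edgeR's quasi-likelihood test and open points did not. DBP2 at -3.01 and -2.44 lies below all other values, and SGS1 at 0.62 and 0.67 is the only gene called higher at both 1.5 and 2 h.

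**Figure D4:**
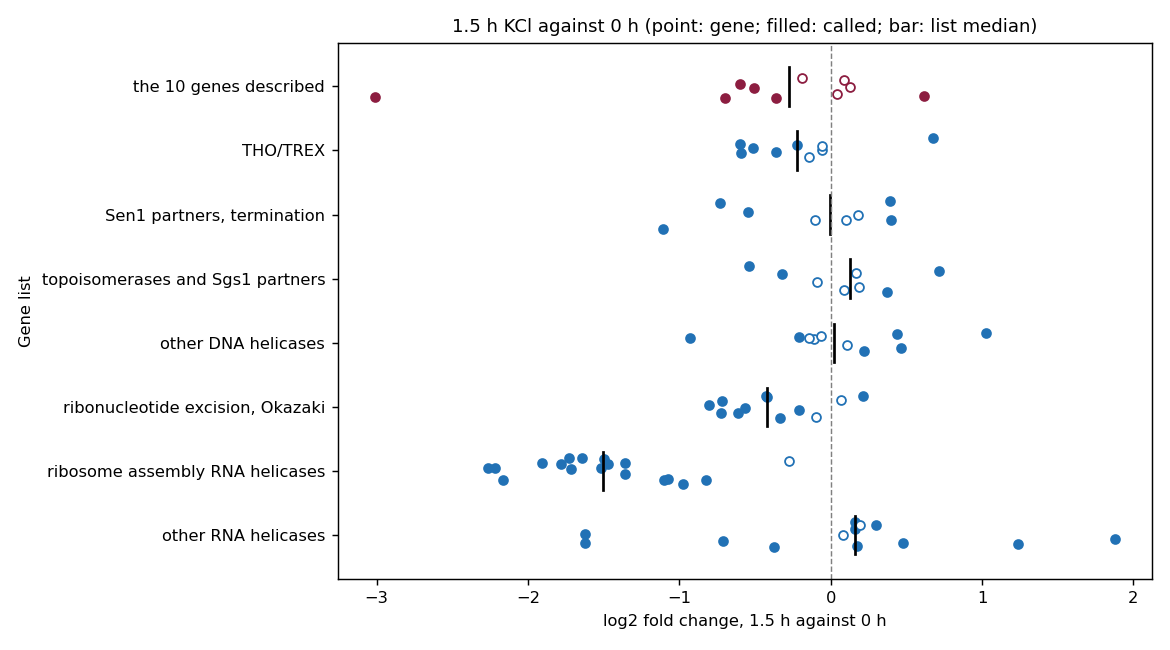
Log2 fold change at 1.5 h against 0 h (x axis) of the 10 genes described and of the genes of 7 lists (rows); each point is a gene, filled where called, and bars are list medians. The ribosome assembly RNA helicases lie furthest left, with a median of -1.51, and DBP2 at -3.01 lies beyond each of them.

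Pif1 and Rrm3 are related DNA helicases that help replication forks past obstacles, Pif1 with a preference for G-quadruplexes and telomerase and Rrm3 for protein-bound sites such as those in ribosomal DNA. PIF1 (YML061C, chrXIII:148953-151532, minus strand) stood at 97.1 and 87.7 CPM at 0 h, 98.2 and 91.3 after 0.5 h, 69.2 and 75.4 after 1 h, 65.3 and 64.7 after 1.5 h, and 73.2 and 66.0 after 2 h. The 6 libraries from 1 h on lay below the other 4. PIF1 fell at 1 h (-0.34, SE 0.08, adjusted p = 0.0017), 1.5 h (-0.51, SE 0.08, adjusted p = 1e-05) and 2 h (-0.43, SE 0.08, adjusted p = 9e-05), when it was 1.35-fold lower. At 0.5 h the value was 0.03 (adjusted p = 0.79), and scaled by library size alone the 2 h value was -0.15 (adjusted p = 0.10).

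RRM3 (YHR031C, chrVIII:170799-172970, minus strand) stood at 57.4 and 63.98 CPM at 0 h, 58.5 and 57.4 after 0.5 h, 85.8 and 84.9 after 1 h, 66.3 and 66.1 after 1.5 h, and 54.9 and 54.8 after 2 h. Its 1 h libraries lay above the other 8. RRM3 rose at 1 h (0.49, SE 0.08, adjusted p = 2.6e-05), 1.40-fold, and was then lower at 1.5 h than at 1 h (-0.37, SE 0.07, adjusted p = 0.00013). With library size alone, the value at 1.5 h against 1 h was not called (-0.04, adjusted p = 0.60 by edgeR's test). The values at 0.5, 1.5 and 2 h against 0 h were -0.07, 0.12 and -0.15, with adjusted p of 0.50, 0.15 and 0.11. The 1.5 h value became called with upper-quartile factors (0.21, adjusted p = 0.021) and with library size alone (0.44, adjusted p = 4e-05), and the 2 h value without the 0 h library of series a (-0.22, adjusted p = 0.049). Per kilobase, RRM3 over PIF1 was 1.47 and 1.34 after 1 h, against 0.702 and 0.866 before KCl.

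Sgs1 is the yeast RecQ helicase, which acts with Top3 and Rmi1 on recombination intermediates. SGS1 (YMR190C, chrXIII:640915-645258, minus strand) stood at 85.3 and 82.5 CPM at 0 h, 78.3 and 73.5 after 0.5 h, 82.8 and 93.7 after 1 h, 127 and 130 after 1.5 h, and 135 and 132 after 2 h. The 4 libraries of 1.5 and 2 h lay well above the other 6. SGS1 rose at 1.5 h (0.62, SE 0.07, adjusted p = 1.2e-07) and at 2 h (0.67, SE 0.07, adjusted p = 5.1e-08), 1.53-fold and 1.59-fold, and the step between 1 and 1.5 h was called as well (0.52, SE 0.07). At 0.5 h the value was -0.15 (adjusted p = 0.11), and -0.23 (adjusted p = 0.017) with library size alone. Per kilobase, SGS1 over RRM3 was 1.23 and 1.21 after 2 h, against 0.743 and 0.645 before KCl.

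Of 8 genes listed with SGS1 and TOP1 as topoisomerases and partners, 2 were higher and 2 lower at 1.5 h (median 0.13), beside 37.5% and 39.1% of all genes, with library size alone 6 and 1. MMS4, for a subunit of a structure-specific nuclease with Mus81, rose most (0.72, SE 0.08), and TOP2, for topoisomerase II, fell most (-0.54, SE 0.06). Of 10 other DNA helicases, 4 were higher and 2 lower at 1.5 h (median 0.02), beside the same shares, with library size alone 7 and 1. MPH1, for a helicase that dissociates recombination intermediates, rose most (1.03, SE 0.06), and RAD3, for a helicase of excision repair and transcription factor TFIIH, fell most (-0.93, SE 0.08). For both lists the shares of 37.5% and 39.1% are those with TMM. Library size alone called 4795 of the 5943 genes tested at 1.5 h, 68.4% of these calls higher.

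Top1, topoisomerase I, relaxes supercoils in front of and behind RNA polymerases. TOP1 (YOL006C, chrXV:313078-315387, minus strand) stood at 242 and 243 CPM at 0 h, 311 and 305 after 0.5 h, 252 and 244 after 1 h, 261 and 256 after 1.5 h, and 281 and 275 after 2 h. The 0.5 h libraries were the highest and the 2 h libraries the next. TOP1 rose at 0.5 h (0.34, SE 0.05, adjusted p = 1.9e-05; 0.33, adjusted p = 0.00044 without the 0.5 h library of series a) and at 2 h (0.20, SE 0.05, adjusted p = 0.0025). At 1 and 1.5 h the values were 0.03 and 0.09, with adjusted p of 0.68 and 0.12. The 1.5 h value was called higher with upper-quartile factors (0.18, adjusted p = 0.0052) and with library size alone (0.41, adjusted p = 7.2e-07). Most like its profile were those of RRN11, for an RNA polymerase I initiation factor (r = 0.98), SPT21, for a regulator of histone genes (0.95), and MCM10, for a replication factor (0.94).

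Pol32, named with RNase H1 in the title of the series, belongs to DNA polymerase delta, which fills the gaps left after RNase H2 or flap nucleases have cut. POL32 stood at 29.0 and 33.4 CPM at 0 h, 43.0 and 40.3 after 0.5 h, 29.2 and 26.6 after 1 h, 20.8 and 21.3 after 1.5 h, and 24.3 and 22.9 after 2 h. It rose at 0.5 h (0.41, SE 0.11, adjusted p = 0.0052) and fell at 1.5 h (-0.56, SE 0.12, adjusted p = 0.00036) and 2 h (-0.41, SE 0.12, adjusted p = 0.0052), and at 1 h the value was -0.18 (adjusted p = 0.22). Of 12 genes that act with RNase H2 in ribonucleotide excision or Okazaki fragment processing, POL32 among them, 8 were higher and 0 lower at 0.5 h (median 0.30), beside 26% and 27.6% of all genes, and 7 and 0 without the 0.5 h library of series a. At 1.5 h 1 was higher and 9 lower (median -0.42), beside 37.5% and 39.1% of all genes. With library size alone 3 were higher and 4 lower, beside 4795 of 5943 genes called at 1.5 h, 68.4% of these calls higher. EXO1, for an exonuclease, was the 1 that rose (0.21, SE 0.08), and RFC5, for a clamp loader subunit, fell most (-0.80, SE 0.10). RAD27, for the flap endonuclease, rose at 0.5 h (0.82) and 1 h (0.43) and fell at 2 h (-0.27).

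Between times, all 10 genes were called at 1.5 h against 0.5 h, 2 higher (RRM3 and SGS1) and 8 lower, beside 43% and 38.9% of all genes (81.9% in either direction). At 1 h against 0.5 h, 2 were higher (RRM3 and SGS1) and 5 lower (RNH202, SEN1, PIF1, TOP1 and DBP2), beside 32.9% and 32.1% (65% in either direction). At 1.5 h against 1 h, 1 was higher (SGS1) and 5 lower (the 3 RNase H2 genes, RRM3 and DBP2), beside 34.1% and 34% (68.2%). At 2 h against 1.5 h, 1 was higher (DBP2) and 2 lower (RNH1 and RRM3), beside 15.5% and 9.47% (25%). Without the 0.5 h library of series a, RNH202 was not called at 1 h against 0.5 h (-0.23, adjusted p = 0.093), nor RNH1 at 1.5 h against 0.5 h (-0.11, adjusted p = 0.24). RNH202 at 1 h against 0.5 h was also lost without the 1 h library of series b (-0.26, adjusted p = 0.12), and RNH1 at 1.5 h against 0.5 h without the 1.5 h library of series a (-0.19, adjusted p = 0.063) or b (-0.21, adjusted p = 0.088). SGS1 at 1 h against 0.5 h (0.25, adjusted p = 0.0069) was lost without the 0.5 h (0.19, adjusted p = 0.11) or 1 h (0.13, adjusted p = 0.26) library of series b. RRM3 at 1.5 h against 0.5 h (0.19, adjusted p = 0.022) was lost without the 0.5 h (0.18, adjusted p = 0.13) or 1.5 h (0.20, adjusted p = 0.076) library of series b, and at 2 h against 1.5 h (-0.27, adjusted p = 0.011) without the 1.5 h (-0.27, adjusted p = 0.064) or 2 h (-0.27, adjusted p = 0.11) library of series b. With library size alone, the share of calls that were higher was 71.3% against 52.5% with TMM at 1.5 h against 0.5 h, 75.8% against 50.1% at 1.5 h against 1 h, and 49.1% against 62.1% at 2 h against 1.5 h. With upper-quartile factors it was 61.1% at 1.5 h against 1 h and 50.2% at 2 h against 1.5 h.

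Levels can be set against each other per kilobase of coding length. At 0 h the order, in CPM per kilobase, was DBP2 (358), TOP1 (105), SEN1 (79.9), RNH1 (65.7), RNH203 (53.3), RNH202 (36.0), PIF1 (35.8), RNH201 (33.0), RRM3 (27.9) and SGS1 (19.3), beside a median of 55.7 over all genes tested. The libraries of RNH202 and PIF1, and of PIF1 and RNH201, overlapped, and those of the other neighbours did not. The highest of these means was 18.6 times the lowest. At 1.5 h TOP1 stood first (112), followed by RNH1 (51.2), SEN1 (49.2), DBP2 (44.5) and RNH201 (35.5), PIF1 stood last (25.2), and the range was 4.44-fold. RNH201 and RNH203 overlapped at 1.5 h, as did RNH202 and RRM3. At 2 h the 5 genes from SGS1 (30.7) through RNH202, RNH203 and RNH201 to PIF1 (27.0) overlapped from neighbour to neighbour. DBP2 lay above 92.2% of all genes per kilobase at 0 h, 93.5% after 0.5 h, 90.5% after 1 h, 40.2% after 1.5 h and 58.2% after 2 h, while TOP1 lay between 72.1% and 77.9% throughout.

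**Figure D5:**
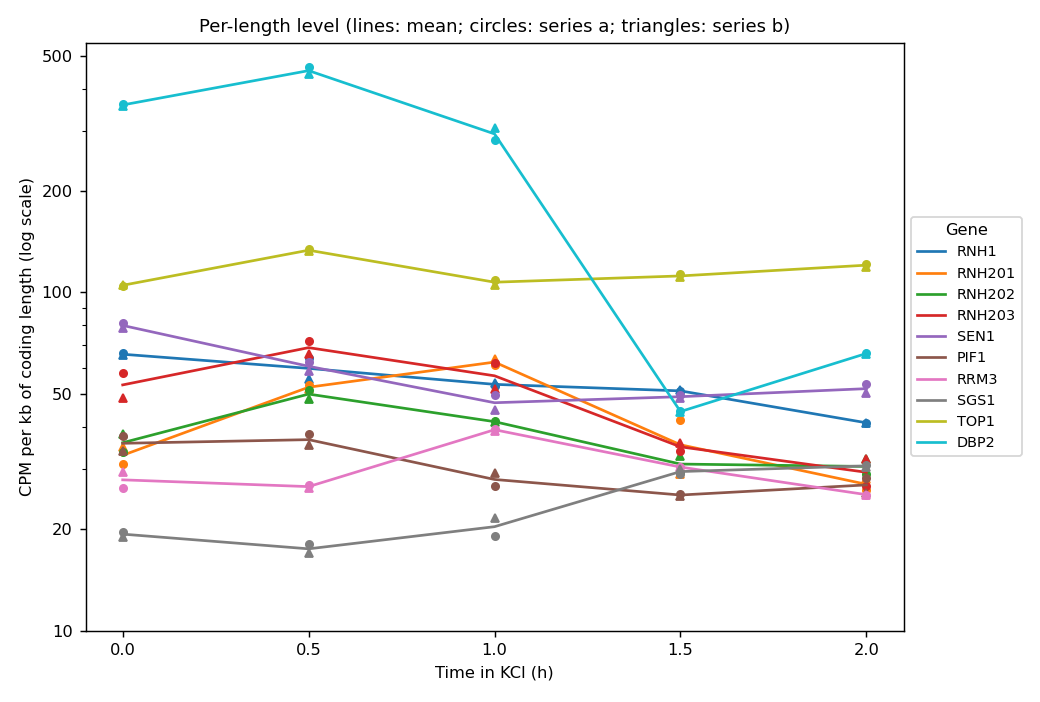
Per-length level (y axis, CPM per kilobase of coding length, log scale) of the 10 genes against time in KCl (x axis, hours). Lines join the means of 2 libraries, circles are series a and triangles series b; the highest mean is 4.44 times the lowest at 1.5 h, against 18.6 times at 0 h.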

How the data were processed

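Poly(A)-purified RNA was made into random-primed cDNA libraries, per the labels' protocols. The deposited table gave raw read counts per coding sequence, per the file headers, of which 2.77% were not whole (they ended in 0.5), so they were handled as estimated counts and rounded. All 100 counts of the 10 genes were whole. The RPKM values deposited by the authors, which correct for coding length and library total, served only as an alternative for per-length levels. The submitters' processing notes name build R64. For aligner, counting tool and strandedness, nothing is stated: not given in the sources used here. From 65885 lines, 1302 gene and mRNA lines and 4693 identical second copies were left out, which left 5989 coding sequences in each of 10 libraries.

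Counts were tested with edgeR 4.0.16 (R 4.3.3) (quasi-likelihood), fitting the 10 libraries together with 1 term for time, TMM scaling and filterByExpr, which kept 5943 genes and left out 46. P-values were two-sided, adjusted by Benjamini-Hochberg over all genes tested, and called under 0.05. The biological coefficient of variation was 4.05%. The SE was taken as the absolute log2 fold change over the square root of F. P-values measure the spread between 2 libraries of a time, from what the design text describes as independent series, and the 3-read floor covers counting error only. The script was tested on simulated counts with known changes.

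The 10 genes, the 7 gene lists and the rule for naming genes were chosen with earlier results of these data known. The rule names the 10 genes, the 3 profiles most like 5 of them, the largest called rise and fall of each list at 1.5 h, the neighbours of RNH203, and POL32. FAL1, RAD27 and TIF1 were named after their values were seen. Lists were described by counts, with no list test.

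Alternatives were DESeq2 1.42.0, other scalings (RLE, the DESeq2-style size factors, upper quartile, library size alone), no filter, fits of 2 times only, rounding down, a replicate block and leaving out each library. The design text names a and b as separate time series, so libraries could pair by series. Checked across 5613 genes, deviations of series a libraries from their time means correlated by -0.113 to 0.313 (Pearson), above 0.1 in 3 of 10 pairs of times. Figures and tables used Python 3.11.15, pandas 2.3.3 and matplotlib 3.10.9.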

Additional observations from a re-analysis of the deposited data

Results flagged for a closer look

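DBP2 was called higher at 0.5 h against 0 h (log2 fold change 0.34) and lower at 1 h (-0.28) and 1.5 h (-3.01), so its change had opposite directions at these times. The difference was tested in the same fit and was called in both cases: -0.62 for 1 h against 0.5 h (SE 0.05, adjusted p = 8.1e-09 by edgeR's quasi-likelihood test) and -3.35 for 1.5 h against 0.5 h (SE 0.06, adjusted p = 7.8e-20). Both libraries of each later time lay below both 0.5 h libraries. Without the 0.5 h library of series a, which held URA3 reads, the differences were -0.58 (adjusted p = 8.6e-07) and -3.31 (adjusted p = 4.7e-17).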

How the results depend on the processing

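Against 0 h, counts of the 10 genes called moved by over 1.5 times in 4 cases under the scalings. With library size alone, 3 were lower at 0.5 h (1 with TMM), 4 higher and 3 lower at 1.5 h (1 and 5), and with upper-quartile factors 3 were higher at 1.5 h. Of the 5943 genes tested, library size alone called 3149 at 0.5 h (36.6% of the calls higher) and 4795 at 1.5 h (68.4%). Upper-quartile factors called 4568 at 1.5 h (54.5%). Between times, library size alone gave 4 higher and 2 lower at 1.5 h against 1 h (1 and 5) and 4 higher and 3 lower at 1.5 h against 0.5 h (2 and 8). Upper-quartile factors gave 3 higher at 1.5 h against 1 h. Over all genes, library size alone called 4648 at 1.5 h against 1 h (75.8% of the calls higher) and 5066 at 1.5 h against 0.5 h (71.3%). Upper-quartile factors called 4169 at 1.5 h against 1 h (61.1%). DESeq2 gave 1 higher at 1 h against 0.5 h (2), 1 higher at 1.5 h against 0.5 h (2), 0 lower at 2 h against 1.5 h (2) and 766 genes called at 2 h against 1.5 h (1485). DESeq2-style (RLE) factors, and a fit of only the 2 times, each gave 1 higher at 1.5 h against 0.5 h. Of single values called by the main fit or the other setting, 4 turned sign, all between times and with library size alone. They were RNH1 at 1.5 h against 1 h (0.26) and, at 1.5 h against 0.5 h, RNH1 (0.20), SEN1 (0.10) and TOP1 (0.14). The median of all genes moved by 0.32 and 0.40 in these comparisons. Values called in neither fit turned sign as well, among them RNH202 at 1.5 h against 0 h (-0.19 with TMM, 0.13 with library size alone).

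Leaving out each library in turn gave 1 to 2 of the 10 lower at 0.5 h, 1 to 2 higher at 1.5 h, 1 to 3 higher at 1 h against 0.5 h, 1 to 2 higher at 1.5 h against 0.5 h, 0 to 2 lower at 2 h against 1.5 h, and 859 to 1590 genes called at 2 h against 1.5 h. The last 2 were lowest without the 2 h library of series b. These ranges describe how calls depend on single libraries and are no result about the 10 genes. Of the single values, 5 became called and 1 lost its call against 0 h, and 5 and 13 between times. Under the other settings 8 became called and 3 lost their call against 0 h, and 8 and 14 between times. The cause of these changes was not tested. With the replicate block, which called 3248, 3436, 4569 and 4457 genes at the 4 times, no call of the 10 genes against 0 h (40 values) or between times (40 values) changed. With the deposited RPKM, 42 of 50 per-length levels moved by more than 1 SD, for example that of DBP2 at 1.5 h (51.6, against 44.5 CPM per kilobase). The RPKM do not include the TMM factors, which were 1.161 and 1.159 at 1.5 h. By either measure the means of the 10 genes had the same order at each time. Depth limits RNH203 most, with 34 reads in its lowest library.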
